A study of Rattus norvegicus with 12 samples.

Results

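The CCN family is a small group of secreted, cysteine-rich proteins of the extracellular matrix, and its genes were followed here in the bronchi of rats that developed airway fibrosis. A gene was taken as a member when the array annotation gave it the symbol Ccn1, Ccn2, Ccn3, Ccn4 or Ccn5, whose older names are Cyr61, Ctgf, Nov, Wisp1 and Wisp2. Where a gene has several probe sets, the brightest by mean log2 signal was to stand for it. This gave 5 genes of 14217, with 1 probe set each of the 31042 tested. No expression value entered the choice of the genes, but the study itself had singled out Ccn2 and Ccn4 on these same samples, so their direction is not independent evidence.

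CCN proteins do not build the matrix themselves. They sit in it as modulators, bind integrins, heparan sulfate proteoglycans and growth factors, and change how cells adhere, migrate, divide and deposit matrix. Ccn1 and Ccn2 are classical immediate targets of growth factors, of mechanical load through the co-activators YAP and TAZ with their DNA-binding partners TEAD, and, for Ccn2, of Tgf-β. Ccn2 is among the best known markers of fibrosis in lung, kidney, liver and skin, whereas Ccn3 counteracts several actions of Ccn2 in cultured cells. Ccn4 and Ccn5 were first described as Wnt1-induced genes of mouse mammary cells, and Ccn5 lacks the carboxy-terminal module that other CCN proteins carry.

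Male Wistar Han rats, 6 to 7 weeks old on arrival, inhaled 200 ppm of 2,3-pentanedione (PD), a butter-flavoring vapor, for 2 weeks, or filtered air. Bronchial wall of the right diaphragmatic lobe was cut by laser from frozen sections and its RNA was amplified and hybridized to Affymetrix rat arrays. The groups were fibrotic bronchi of PD-exposed rats (3 arrays, numbered 3, 7 and 9), non-fibrotic bronchi of PD-exposed rats (3 arrays, numbered 4, 8 and 10) and bronchi of air-exposed control rats (6 arrays, numbered 1 to 6). Fibrotic specimens were described as polyps or plaques in the airway lumen with the wall beneath them, while non-fibrotic and control specimens included the lining epithelium. By the methods, non-fibrotic tissue came from rats that also gave fibrotic tissue, and no label tells which of them belong to one animal, so tests between those groups do not allow for shared animals. Such pieces hold many cell types, and in them fewer cells of a type and less RNA per cell cannot be told apart.

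Values are MAS5 signals, in arbitrary units, which the authors had scaled so that the trimmed mean was between 500.1 and 500.2 on every array. They were compared as log2 signals in one limma model of the 3 groups, and a call means a Benjamini-Hochberg adjusted p under 0.01, adjusted over all 31042 probe sets. Levels of different genes were not compared, because probe sets differ in how well they bind. A log2 signal of 6.52 was taken as background, the highest of 36 values of 3 probe sets for bacterial transcripts that no kit adds, and 37.0% of the tested probe sets had a mean under it. Controls 1 and 2 stood apart. The poly-A control transcripts, added during labelling, had a mean log2 signal of 2.60 on them, against 10.32 on controls 3 to 6 and 10.08 on the exposed arrays. The 3′ to 5′ difference of GAPDH, a sign of RNA length, was 2.03 on the log2 scale in exposed arrays, 1.60 in controls 1 and 2 and 0.78 in controls 3 to 6. Results are therefore also given against each set of controls. The part of these differences in the results was not tested.

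The promoters of Ccn2 and Ccn1 are shown because several of the later comparisons concern YAP and TEAD, whose binding motif they hold. The 250 bases before each start site, from RefSeq on GRCr8, lie at chr1:22624615-22624864 for Ccn2 and at chr2:237225690-237225939 for Ccn1, both on the minus strand. Capitals mark the TEAD motif GGAATG or its reverse complement CATTCC.
Ccn2: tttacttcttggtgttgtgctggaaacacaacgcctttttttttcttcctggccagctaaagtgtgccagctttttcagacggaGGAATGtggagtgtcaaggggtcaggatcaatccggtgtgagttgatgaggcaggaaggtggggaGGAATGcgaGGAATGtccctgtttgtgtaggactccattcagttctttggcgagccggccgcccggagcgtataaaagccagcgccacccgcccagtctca
Ccn1: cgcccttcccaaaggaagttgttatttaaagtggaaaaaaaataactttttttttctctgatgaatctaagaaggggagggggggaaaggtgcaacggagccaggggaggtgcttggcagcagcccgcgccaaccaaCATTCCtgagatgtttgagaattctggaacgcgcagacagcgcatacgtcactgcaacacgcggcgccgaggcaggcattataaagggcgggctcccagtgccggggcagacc
Ccn2 held 3 copies of the motif, all on the gene strand, at bases -166 to -161, -101 to -96 and -92 to -87 from the start site. Ccn1 held 1 copy on the other strand, at bases -113 to -108. The window searched for motifs ran from 250 bases before to 50 bases after the start site, and only its first 250 bases are printed. Of 33469 promoters in the RefSeq table, searched in the same window on both strands, 14.2% held the TEAD motif at least once. In 32 promoters, or 0.0956%, it was found 3 or more times. A TATA box (TATAAA) lay at bases -31 to -26 of Ccn2 and -34 to -29 of Ccn1, and 14.2% of all promoters held one. The Smad motif CAGACA was found in Ccn1 at bases -80 to -75 and in 21.1% of all promoters, and Ccn2 held none in this window. The Sp1 motif GGGCGG was found 2 times in Ccn2 and 1 time in Ccn1, and in 33.1% of all promoters. Neither window held an AP-1 motif (TGACTCA or its reverse complement TGAGTCA, 4.63% of all promoters) or a CArG box (1.64%). These matches are letters in a sequence and say nothing of binding.

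Ccn2 and Ccn1 rose in fibrotic bronchi by 6.95-fold and 4.41-fold, and Ccn3 fell by 4.86-fold. The mean of Ccn4 was at least 5.09-fold higher in fibrotic bronchi, counted from the background that all 6 controls lay under, and it narrowly missed the threshold. No change was called for Ccn5 in fibrotic bronchi, and its lowest mean was in non-fibrotic bronchi. Of the 5 members, 2 rose and 1 fell in fibrotic against control bronchi, beside 2.99% of all probe sets that rose and 6.4% that fell, or 9.39% in either direction. In non-fibrotic against control bronchi 0 members were called, beside 0.164% of all probe sets that rose and 0.358% that fell, or 0.522% together.

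**Figure D1:**
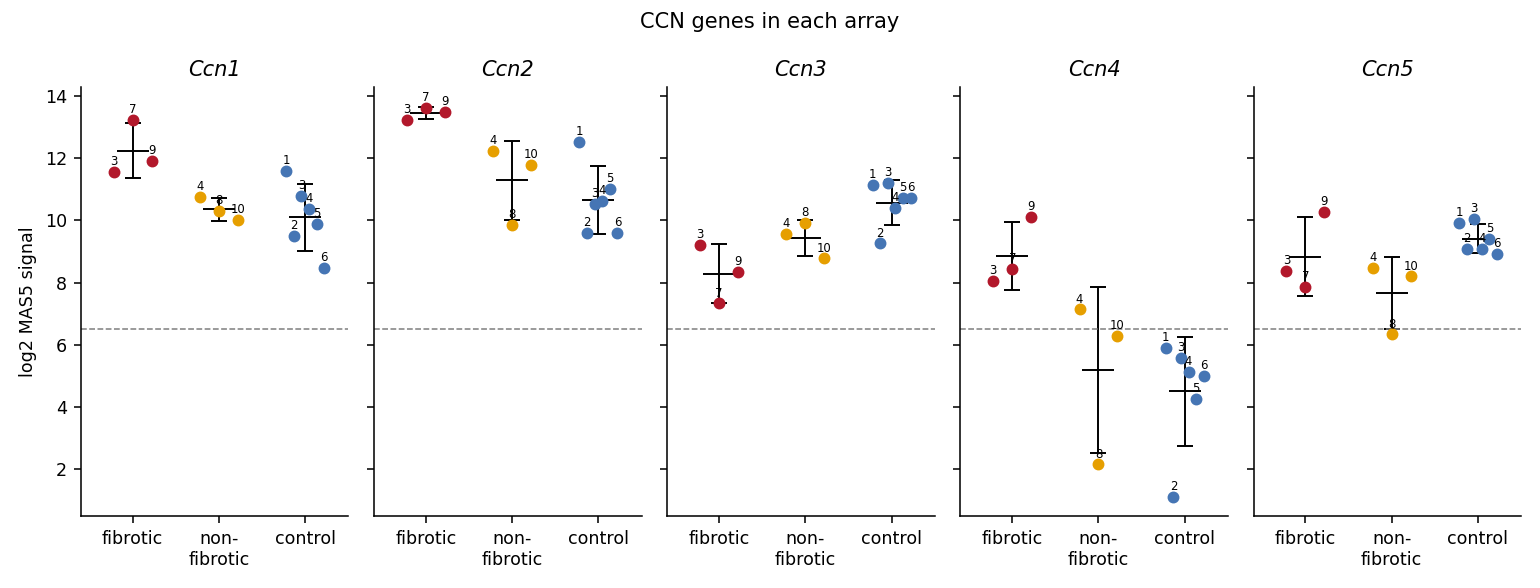
Log2 MAS5 signal (vertical) of each CCN gene in fibrotic, non-fibrotic and control bronchi; points are arrays with their replicate numbers, bars are the mean ± SD and the dashed line is the background of 6.52. Ccn2 lies above 13 in all 3 fibrotic arrays and Ccn4 lies under the background in all 6 controls.

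Ccn2 encodes connective tissue growth factor, which binds Tgf-β and integrins and promotes matrix synthesis. Its log2 signals were 13.23, 13.63 and 13.49 in fibrotic bronchi 3, 7 and 9, 12.24, 9.86 and 11.79 in non-fibrotic bronchi 4, 8 and 10, and 12.53, 9.61, 10.52, 10.64, 11.02 and 9.61 in controls 1 to 6. All fibrotic arrays lay above every other array, and they were the most uniform group, with a mean of 13.45 ± 0.20 (SD, n = 3), against 11.30 ± 1.26 (SD, n = 3) in non-fibrotic and 10.65 ± 1.08 (SD, n = 6) in control bronchi. The log2 fold change of fibrotic against control bronchi was 2.80 (standard error 0.56, 95% confidence interval 1.61 to 3.98, limma adjusted p = 0.00235). Against non-fibrotic bronchi it was 2.16 (standard error 0.64, interval 0.79 to 3.52, adjusted p = 0.0455), which did not pass. For non-fibrotic against control bronchi it was 0.64 with an interval of -0.54 to 1.82 (adjusted p = 0.484). Non-fibrotic bronchi overlapped the controls, and the highest control, number 1, lay above all of them. The call in fibrotic bronchi was lost without any 1 of the 3 fibrotic arrays (adjusted p = 0.0109 to 0.016, log2 fold changes 2.71 to 2.91), without the intensity trend (adjusted p = 0.0156) and against controls 1 and 2 alone (log2 fold change 2.38, adjusted p = 0.102), and it held against controls 3 to 6 (3.01, adjusted p = 5.3e-04).

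Ccn1, also known as Cyr61, supports the adhesion of fibroblasts and endothelial cells through integrins and, in mouse wounds, drives fibroblasts into senescence. It had log2 signals of 11.56, 13.24 and 11.92 in fibrotic bronchi 3, 7 and 9, and 10.75, 10.32 and 10.02 in non-fibrotic bronchi 4, 8 and 10. Controls 1 to 6 had 11.61, 9.50, 10.78, 10.36, 9.88 and 8.48. Fibrotic array 7 was the highest of all, and control 1, at 11.61, lay just above fibrotic array 3, so these groups overlapped by 1 array. Fibrotic bronchi averaged 12.24 ± 0.89 (SD, n = 3), non-fibrotic bronchi 10.36 ± 0.37 (SD, n = 3) and control bronchi 10.10 ± 1.08 (SD, n = 6). The gene rose in fibrotic against control bronchi with a log2 fold change of 2.14 (standard error 0.52, interval 1.04 to 3.24, limma adjusted p = 0.00919), close to the threshold. All fibrotic arrays lay above all non-fibrotic arrays, with a difference of 1.88 (standard error 0.60, interval 0.60 to 3.15, adjusted p = 0.0619). Non-fibrotic bronchi differed from controls by 0.26 (interval -0.84 to 1.37, adjusted p = 0.778). This was the least stable of the 3 calls and held in 9 of 23 alternatives, over which the adjusted p ranged from 0.00171 to 0.139. It was lost without fibrotic array 3, 7 or 9 (adjusted p = 0.0144, 0.0758 and 0.0232) and against controls 1 and 2 alone (1.69, adjusted p = 0.139), and it held against controls 3 to 6 (2.37, adjusted p = 0.00396).

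Ccn3, known earlier as Nov, lowers Ccn2 expression and matrix production in cultured mesangial cells of the kidney. It moved the other way in fibrotic bronchi. Its log2 signals were 9.21, 7.34 and 8.34 in fibrotic bronchi 3, 7 and 9, 9.58, 9.92 and 8.78 in non-fibrotic bronchi 4, 8 and 10, and 11.14, 9.26, 11.22, 10.40, 10.72 and 10.72 in controls 1 to 6. Every fibrotic array lay under every control, although fibrotic array 3 and control 2 were only 9.21 and 9.26. Group means were 8.29 ± 0.94 (SD, n = 3) in fibrotic, 9.43 ± 0.58 (SD, n = 3) in non-fibrotic and 10.58 ± 0.71 (SD, n = 6) in control bronchi. Fibrotic against control bronchi gave a log2 fold change of -2.28 (standard error 0.44, interval -3.22 to -1.34, limma adjusted p = 0.00188). Non-fibrotic bronchi lay between them, at -1.15 from controls (interval -2.09 to -0.21, adjusted p = 0.116), and fibrotic against non-fibrotic bronchi gave -1.13 (interval -2.21 to -0.05, adjusted p = 0.193); neither passed. Of the 3 called members this call held most often, in 20 of 23 alternatives. It was lost without fibrotic array 7 (-1.80, adjusted p = 0.0194), without the intensity trend (adjusted p = 0.0113) and against controls 1 and 2 alone (-1.91, adjusted p = 0.136), and it held against controls 3 to 6 (-2.47, adjusted p = 8.0e-04).

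Ccn4, or Wisp1, raises the proliferation of alveolar type II cells and the matrix output of lung fibroblasts in mouse and human cultures. It had log2 signals of 8.05, 8.44 and 10.11 in fibrotic bronchi 3, 7 and 9, and 7.14, 2.16 and 6.30 in non-fibrotic bronchi 4, 8 and 10. In controls 1 to 6 it had 5.90, 1.12, 5.59, 5.15, 4.27 and 5.01. All 6 controls and non-fibrotic arrays 8 and 10 lay under the background of 6.52, so only the 3 fibrotic arrays and non-fibrotic array 4 gave a measured level, and the order of the other arrays has no meaning. Fibrotic bronchi averaged 8.87 ± 1.10 (SD, n = 3), all above every other array. Measured from the background their mean was at least 5.09-fold higher than that of controls, a bound that leaves out the spread between arrays. The fitted log2 fold change was 4.36 (standard error 1.10, interval 2.02 to 6.70, limma adjusted p = 0.0118), which missed 0.01 and rests in part on values under the background. With arrays under the background set to it, the change was 2.35. Over 22 alternatives the adjusted p ranged from 1.5e-04 to 0.0813, and the test was passed in 7. Those include low signals raised to the 20th percentile, a pseudocount of 16 and the unchanged fit read at a threshold of 0.05. The test was missed both against controls 1 and 2 alone (5.35, adjusted p = 0.0813) and against controls 3 to 6 (3.86, adjusted p = 0.0135). Fibrotic against non-fibrotic bronchi gave 3.66 (interval 0.96 to 6.37, adjusted p = 0.0865), or 2.14 with arrays under the background set to it. Non-fibrotic array 8 decided much of that size, since without it the difference was 2.14 (adjusted p = 0.318). Non-fibrotic against control bronchi gave 0.70 (interval -1.65 to 3.04, adjusted p = 0.719), between groups that lay mostly under the background.

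Ccn5, or Wisp2, restrains the growth and migration of vascular smooth muscle cells. Its log2 signals were 8.38, 7.85 and 10.29 in fibrotic bronchi 3, 7 and 9, and 8.47, 6.34 and 8.20 in non-fibrotic bronchi 4, 8 and 10. Controls 1 to 6 had 9.93, 9.08, 10.04, 9.09, 9.40 and 8.93. Fibrotic array 9 was the highest of the 12 and the other fibrotic arrays lay under all controls, so fibrotic bronchi had no common direction. They averaged 8.84 ± 1.28 (SD, n = 3), against 7.67 ± 1.16 (SD, n = 3) in non-fibrotic and 9.41 ± 0.47 (SD, n = 6) in control bronchi. The log2 fold change in fibrotic against control bronchi was -0.57 with an interval of -1.69 to 0.55 (limma adjusted p = 0.491). It was -1.30 (adjusted p = 0.111) without fibrotic array 9 and -0.08 (adjusted p = 0.947) without fibrotic array 7. Against controls 1 and 2 alone it was -0.67 (adjusted p = 0.738) and against controls 3 to 6 it was -0.52 (adjusted p = 0.566). All 3 non-fibrotic arrays lay under all 6 controls, as did those of 5.42% of all probe sets (in 9.23% they all lay above), with a log2 fold change of -1.74 (standard error 0.53, interval -2.86 to -0.62, adjusted p = 0.0597). That difference did not pass, and it was -1.08 (adjusted p = 0.213) without non-fibrotic array 8, the lowest array and the only one under the background. Non-fibrotic bronchi gave -1.84 (adjusted p = 0.39) against controls 1 and 2 alone and -1.69 (adjusted p = 0.0758) against controls 3 to 6. Fibrotic against non-fibrotic bronchi gave 1.17 (interval -0.12 to 2.46, adjusted p = 0.268).

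Ccn6, a member of the family that the choice of genes left out, gave log2 signals from 4.05 to 7.11 in fibrotic, 4.12 to 6.80 in non-fibrotic and 5.17 to 6.73 in control bronchi. The groups overlapped, and 2 of 3 fibrotic, 2 of 3 non-fibrotic and 4 of 6 control arrays lay under the background.

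Across the members, fibrotic arrays were all above controls for Ccn2 and Ccn4 and all below them for Ccn3. Over all probe sets, 12.3% had every fibrotic array above every control and 11.3% had every one below. In fibrotic against non-fibrotic bronchi, Ccn1, Ccn2 and Ccn4 had all fibrotic arrays higher, as had 10.9% of all probe sets, and 0 of 5 members were called at 0.01, beside 1.07% of all probe sets that rose and 2.75% that fell, or 3.82% together. For 12.2% of all probe sets every fibrotic array lay below every non-fibrotic one, and for 0 members. At an unadjusted p under 0.05, 4 of 5 members differed between fibrotic and non-fibrotic bronchi (23.2% of all probe sets), and 2 of 5, Ccn3 and Ccn5, between non-fibrotic and control bronchi (26.4%). The order of the groups thus differed among the members. Ccn2 had the order fibrotic, non-fibrotic and control in its means, Ccn3 the reverse order and Ccn5 the order control, fibrotic and non-fibrotic. The neighbours non-fibrotic and control did not differ beyond their spread for Ccn1, Ccn2 and Ccn4. Since the 3 comparisons share arrays in pairs, they are not independent of each other.

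**Figure D2:**
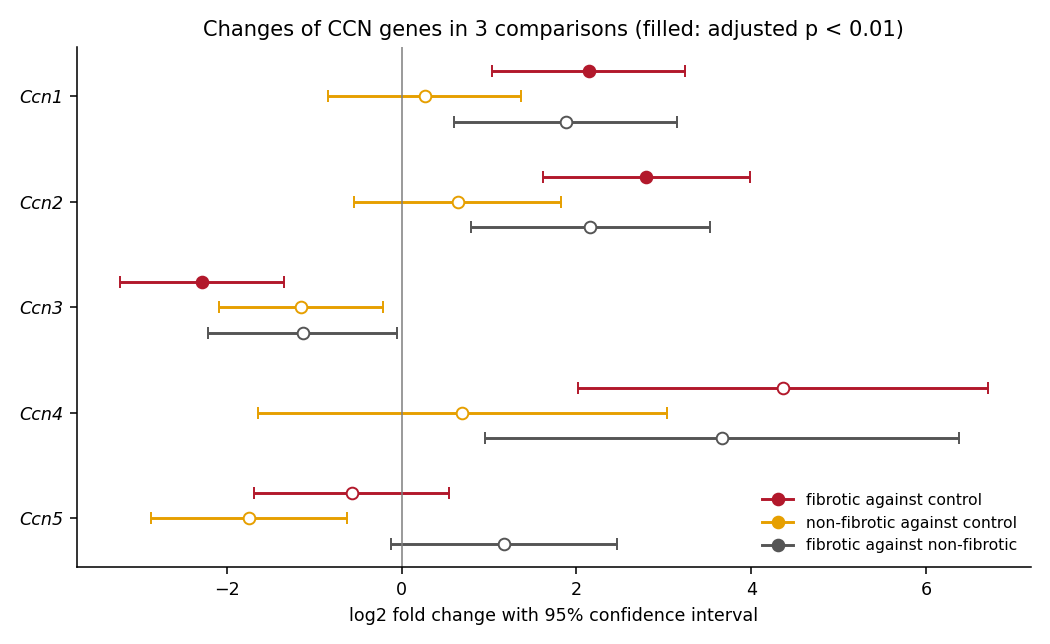
Log2 fold change (horizontal, point) with its 95% confidence interval (line) of each CCN gene in the 3 comparisons of groups, by colour. Filled points, Ccn1, Ccn2 and Ccn3 in fibrotic against control bronchi, had an adjusted p under 0.01.

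Within the 6 controls, where no treatment differs, Ccn1 and Ccn2 had a Pearson correlation of 0.850 (exact permutation test, two-sided, p = 0.0389, adjusted p = 0.167 over 10 pairs of members) and a Spearman correlation of 0.771 (exact permutation p = 0.103, adjusted p = 0.25). Without controls 1 and 6, the farthest in Ccn1 from the median, the Pearson correlation was 0.473, so that it rests on those arrays, and over controls 3 to 6 it was 0.743 (n = 4). Other pairs had correlations of this size. Ccn3 and Ccn4 had a Pearson correlation of 0.941 (exact permutation p = 0.05), with Ccn4 under the background in all controls. Ccn1 and Ccn5 had 0.831 (exact permutation p = 0.0361) and a Spearman correlation of 0.886 (exact permutation p = 0.0333). Of the 10 pairs, 0 passed after adjustment, and the smallest adjusted p was 0.167 by Pearson's and 0.25 by Spearman's correlation (exact permutation tests). Control 1 was the highest control for Ccn1 and Ccn2. Over the 12 arrays no pooled correlation between members was computed, since the fibrotic arrays form a cluster of their own.

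**Figure D3:**
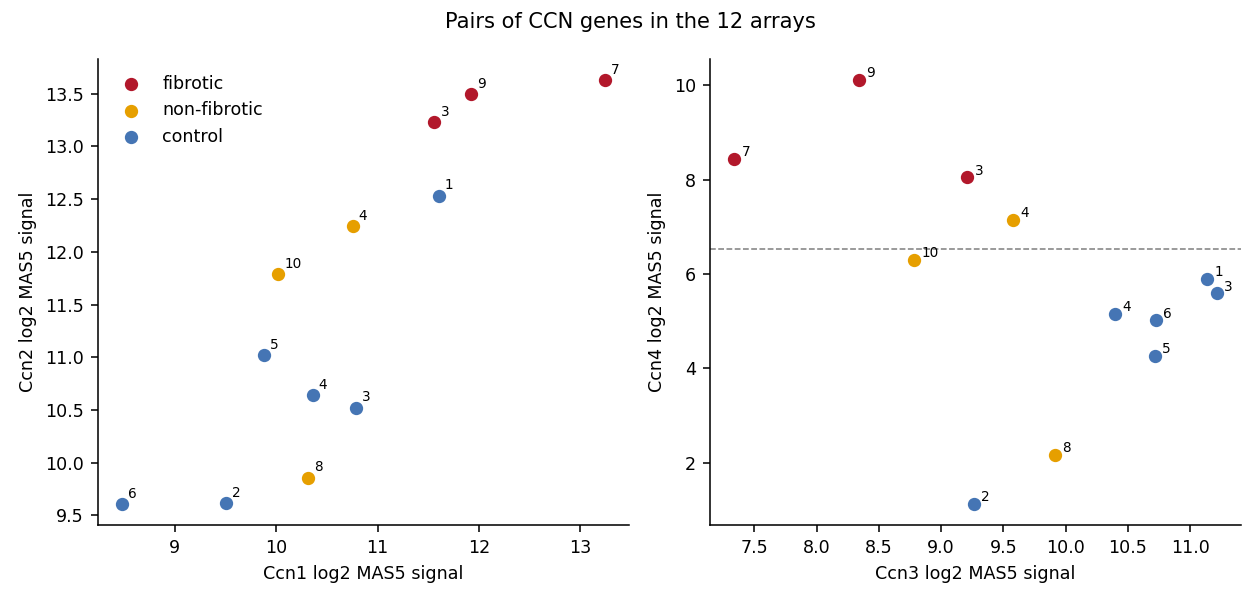
Log2 signals of Ccn2 (vertical) against Ccn1 (horizontal), left, and of Ccn4 (vertical) against Ccn3 (horizontal), right, in the 12 arrays, numbered by replicate; the dashed line is the background of 6.52 for Ccn4. Fibrotic arrays lie at the upper right on the left and at the upper left on the right, with control 1 next to the fibrotic arrays on the left.

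Genes whose log2 signals were most like those of a member over the 12 arrays were sought among the genes with at least median signal. They were chosen by their correlation over all arrays, fibrotic ones included, so their direction in fibrotic bronchi follows from the choice and was not tested. Beside each r over the arrays stands the r within groups, the correlation after each group mean was taken off, and both are descriptions. Ccn1 was most like Egr1, an immediate early transcription factor (r = 0.926, within groups 0.873, n = 12), Lmna, a lamin of the nuclear envelope (0.905, within groups 0.831), and Zfp281 (0.901, within groups 0.760). Egr1 averaged 12.23 ± 1.18 (SD, n = 3) in fibrotic, 10.68 ± 0.29 (SD, n = 3) in non-fibrotic and 10.76 ± 0.76 (SD, n = 6) in control bronchi. With Egr1, Ccn1 shared its highest array, fibrotic 7. Ccn2 was most like Lrrc8c, a subunit of volume-regulated anion channels (r = 0.965, within groups 0.925), Podxl, a sialomucin of endothelium and podocytes (0.956, within groups 0.877), and Adamts4, an aggrecanase (0.955, within groups 0.878). Adamts4 averaged 12.02 ± 0.18 (SD, n = 3) in fibrotic, 8.90 ± 2.16 (SD, n = 3) in non-fibrotic and 7.59 ± 1.05 (SD, n = 6) in control bronchi.

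Ccn4 was most like Stab1, a scavenger receptor of macrophages and sinusoidal endothelium (r = 0.963, within groups 0.919), Map4, a microtubule-associated protein (0.947, within groups 0.915), and Lrrc8c again (0.946, within groups 0.902). Since 8 of the 12 values of Ccn4 lie under the background, this likeness rests largely on which arrays were low. Ccn3 was most like Zfp422 (r = 0.952, within groups 0.941), Ica1 (0.947, within groups 0.836) and Ndufv3, a subunit of mitochondrial complex I (0.910, within groups 0.774). Ccn5 was most like Matn2, a matrilin of the matrix (r = 0.900, within groups 0.852), Mettl13 (0.890, within groups 0.848) and Tnfaip8 (0.887, within groups 0.791).

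Proteins that CCN family members act through were measured by the same arrays. Of 17 CCN receptors, 5 rose and 2 fell in fibrotic against control bronchi, with a median log2 fold change of 0.75, beside 0.10 for all 14217 genes, of which 587 rose and 1192 fell. Itgb1, the β1 integrin subunit shared by many CCN-binding integrins, rose with 1.18 (limma adjusted p = 1.2e-04) and averaged 12.72 ± 0.19 (SD, n = 3) in fibrotic bronchi, 12.43 ± 0.06 (SD, n = 3) in non-fibrotic and 11.54 ± 0.18 (SD, n = 6) in control bronchi. Itga6, its α6 partner, rose with 1.81 (adjusted p = 0.00203). Itgav and Itgb3, which form the αvβ3 integrin bound by Ccn1 and Ccn2, rose with 1.27 and 2.55 (adjusted p = 0.00229 and 0.00922). Lrp1, an endocytic receptor that takes up Ccn2, rose with 1.57 (adjusted p = 0.00114). The receptors that fell were Fgfr2, a fibroblast growth factor receptor of epithelium (-2.95, adjusted p = 2.4e-04), and Sdc4, the heparan sulfate proteoglycan syndecan-4 (-1.38, adjusted p = 0.00147). In non-fibrotic bronchi 0 of the 17 receptors were called against controls, beside 26 of all 14217 genes that rose and 62 that fell. The median of the receptors was -0.21.

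Of 16 CCN binding partners, 5 rose and 1 fell in fibrotic against control bronchi, with a median of 1.17. Fibronectin, Fn1, a matrix protein that binds Ccn2, averaged 12.94 ± 0.26 (SD, n = 3) in fibrotic, 9.45 ± 1.98 (SD, n = 3) in non-fibrotic and 8.15 ± 0.78 (SD, n = 6) in control bronchi, with a log2 fold change of 4.79 (limma adjusted p = 6.0e-05). Bgn, the proteoglycan biglycan that binds Ccn4, rose with 1.63 (adjusted p = 1.2e-04), and Slit3, a secreted guidance protein, with 3.25 (adjusted p = 1.6e-04). Igf1, insulin-like growth factor 1, rose with 2.41 (adjusted p = 5.4e-04), and Gja1, the gap junction protein connexin 43 that binds Ccn3, with 2.07 (adjusted p = 0.00105). Bmp4, a growth factor whose activity Ccn2 inhibits, fell with -1.49 (adjusted p = 0.00879). Tgfb1 had a difference of 0.84 (adjusted p = 0.524) and Vegfa of -0.01 (adjusted p = 0.992), neither of which passed. In non-fibrotic against control bronchi 0 of the 16 partners were called.

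The pathways that are known to act on CCN genes were counted in the same way. Of 24 components of the Hippo pathway with YAP and TEAD partners, 3 rose and 1 fell in fibrotic bronchi, with a median of -0.04. Lats2, a kinase that restrains YAP and is itself a YAP target, rose with 1.37 (limma adjusted p = 5.2e-04), Tead4, one of the TEAD factors, with 1.58 (adjusted p = 0.00948, its control mean of 6.32 lying under the background) and Amotl1, an angiomotin, with 0.97 (adjusted p = 0.00876). Wwc1, the scaffold Kibra that activates the pathway, averaged 7.23 ± 0.38 (SD, n = 3) in fibrotic, 10.31 ± 0.45 (SD, n = 3) in non-fibrotic and 10.66 ± 0.56 (SD, n = 6) in control bronchi, a log2 fold change of -3.44 (adjusted p = 3.5e-06). Of 19 genes of a YAP target signature, without Ccn1 and Ccn2, 6 rose and 1 fell, with a median of 1.02. Myof rose with 1.67 (adjusted p = 1.8e-04), Nuak2 with 1.66 (adjusted p = 4.2e-04), Axl, a receptor tyrosine kinase, with 1.42 (adjusted p = 0.0016) and Tgfb2, the Tgf-β2 ligand, with 1.58 (adjusted p = 0.00128), while Crim1 fell with -1.66 (adjusted p = 0.00139). Ankrd1, another YAP target, had a difference of 3.17 that did not pass (adjusted p = 0.0772), with all controls under the background. In non-fibrotic against control bronchi 2 of these 19 genes were called, both higher, Amotl2 and Arhgef17, with 1.73 and 1.74 (adjusted p = 0.00722 and 0.00786, each called in 11 of 23 alternatives), and Ccn1 and Ccn2 were not. The median of the 19 was 0.44 there. The log2 of their summed signal was 14.46 to 14.64 in fibrotic, 14.45 to 15.05 in non-fibrotic and 13.94 to 14.11 in control bronchi. Myof, Nuak2 and Lats2 averaged 10.54, 11.12 and 11.26 in non-fibrotic and 9.39, 9.77 and 10.22 in control bronchi, without a call.

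Of 23 genes that Tgf-β is known to induce, 9 rose and 0 fell in fibrotic bronchi, with a median of 0.88. Besides Fn1, they included Tgfbi, a matrix protein named for this induction (2.13, limma adjusted p = 9.6e-05), Postn, the matricellular protein periostin (3.90, adjusted p = 2.8e-04), Timp1, an inhibitor of metalloproteinases (4.22, adjusted p = 0.00126), and Col1a2, a chain of type I collagen (1.24, adjusted p = 0.00858). Of 24 genes in a list of immediate early genes and targets of serum response factor, 4 rose and 0 fell, with a median of 0.91. The list also holds Mrtfa, which is a co-activator of that factor. Egr2 rose with 4.11 (adjusted p = 1.0e-04), Klf6 with 1.12 (adjusted p = 0.00103), Atf3 with 2.05 (adjusted p = 0.00401) and the co-activator Mrtfa with 1.66 (adjusted p = 0.00136), whereas Fos had 0.43 (adjusted p = 0.625). Of 11 Wnt target genes, 0 rose and 3 fell, with a median of -0.08. Those were the Wnt inhibitor Wif1, Lgr5 and Apcdd1, with mean log2 signals of 6.32, 6.36 and 5.74 in fibrotic and 9.46, 9.05 and 7.92 in control bronchi, near or under the background where they were low. Their means in non-fibrotic bronchi were 8.20, 7.36 and 5.71, so Apcdd1 was about as low there, without a call. In fibrotic against control bronchi Axin2, a widely used Wnt target, had -0.08 (limma adjusted p = 0.926). Ccn4 and Ccn5, named for Wnt, had differences of 4.36 and -0.57 in the same comparison, and neither was called. All controls lay under the background for Ccn4, and with such arrays set to it the difference was 2.35.

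In non-fibrotic against control bronchi, the calls in these pathways stand beside 26 of all 14217 genes that rose and 62 that fell. Of the 24 Hippo components 1 rose, Amotl2, which is also in the YAP target signature. Of the 11 Wnt target genes 1 rose and 0 fell, with a median of -0.25, and the gene was Ccnd1, which encodes cyclin D1. Its log2 fold change was 1.66 (limma adjusted p = 0.00177), called in 19 of 23 alternatives and lost without non-fibrotic array 8 or 10 and against controls 1 and 2 alone. Of the 23 Tgf-β response genes 1 rose and 0 fell, Cdkn1a, the cell cycle inhibitor p21, with 1.15 (adjusted p = 0.00814, called in 9 of 23 alternatives). Of the 24 genes in the list of immediate early genes and targets of serum response factor 0 were called by limma.

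**Figure D4:**
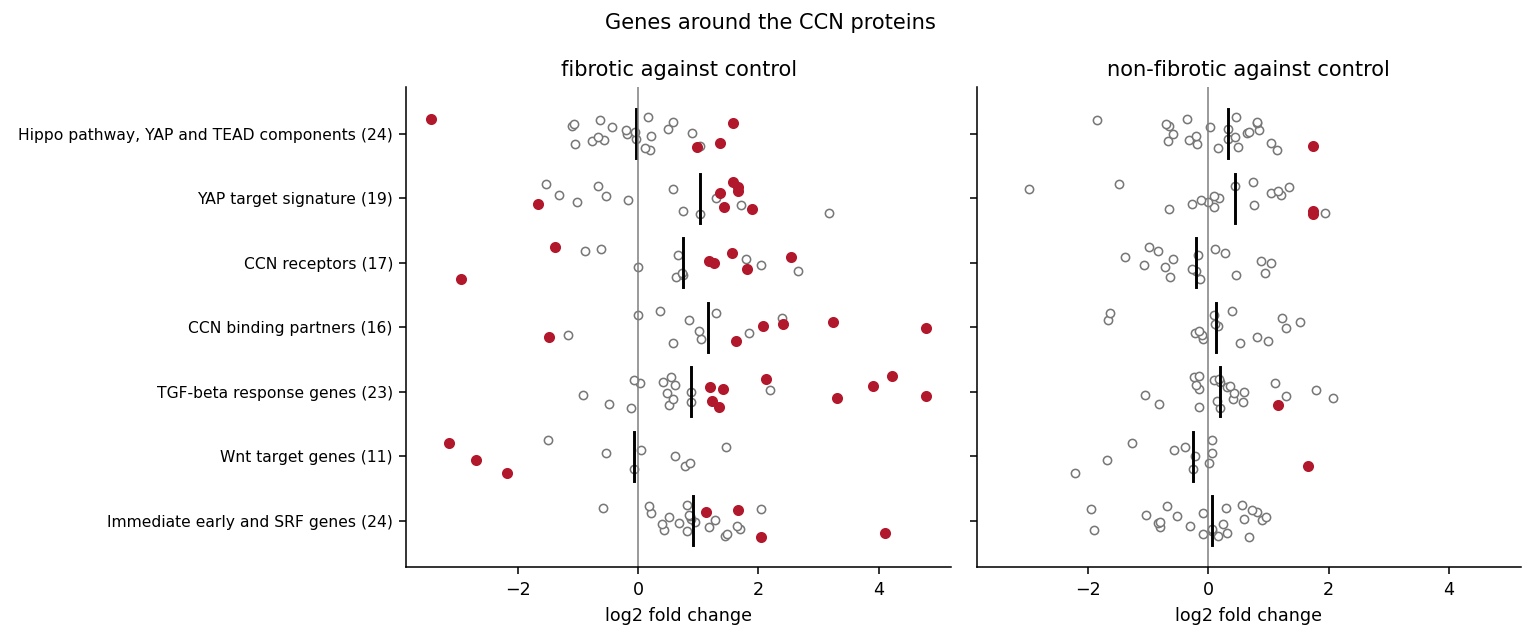
Log2 fold change (horizontal) of each gene of 7 lists around the CCN proteins, with fibrotic bronchi on the left and non-fibrotic bronchi on the right, each set against control; brackets give the genes measured, filled points had an adjusted p under 0.01 and bars are medians. In fibrotic bronchi the medians run from -0.08 for Wnt target genes to 1.17 for binding partners.

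Against controls 1 and 2 alone, at most 1 gene of each of these 7 lists was called in fibrotic bronchi. The YAP target signature, the receptors and the Wnt target genes then had 0 calls. Against controls 3 to 6 the YAP target signature had 8 genes that rose and 2 that fell, the receptors 5 and 2, the binding partners 6 and 0, the Tgf-β response genes 11 and 0, and the Hippo components 3 and 2. The immediate early genes then had 8 that rose and 0 that fell, and the Wnt target genes 2 that rose and 4 that fell. Of the genes named here, Wwc1, Bgn, Tgfbi and Egr2 were called in fibrotic bronchi under all 23 alternatives. Lats2, Myof, Nuak2, Itgb1, Fgfr2, Lrp1, Fn1, Slit3, Igf1, Postn, Wif1 and Lgr5 lost the call only against controls 1 and 2 alone. Other calls also fell away without 1 fibrotic array. Those of Tgfb2, Axl, Klf6 and Mrtfa were lost without fibrotic array 7, those of Crim1 and Gja1 without array 9, those of Itga6, Itgav and Sdc4 without array 3 or 9 and those of Atf3 and Timp1 without array 3 or 7. Amotl1, Tead4, Itgb3, Bmp4, Col1a2 and Apcdd1, close to the threshold, were called in 9 to 14 of 23 alternatives and were lost also without any 1 of several controls.

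Marker transcripts of several cell types also differed between the same groups. Of 16 fibroblast markers, which include collagens, 5 rose and 0 fell in fibrotic bronchi (median 1.06), and the log2 of their summed signal was 16.29 to 16.70 in fibrotic, 15.69 to 16.12 in non-fibrotic and 15.39 to 16.10 in control bronchi. Control 1, the highest control for Ccn1 and Ccn2, was also the highest control for this sum. It was likewise highest for the sums of smooth muscle, endothelial, T and NK, B and plasma and mast cell markers. In the other marker sums it was not the highest control. Of 10 macrophage markers, 5 rose and 0 fell (median 2.78), with sums of 14.87 to 15.69 in fibrotic, 14.36 to 14.88 in non-fibrotic and 13.78 to 14.51 in control bronchi. All 7 ciliated cell markers fell (median -4.45), with sums of 10.69 to 11.43 in fibrotic, 14.68 to 15.40 in non-fibrotic and 14.83 to 15.49 in control bronchi. Of 7 club cell markers 6 fell and 0 rose (median -3.33), with sums of 12.81 to 14.09 in fibrotic, 15.51 to 16.28 in non-fibrotic and 15.56 to 17.03 in control bronchi, and Scgb3a1 was under the background in all fibrotic arrays. Of 8 alveolar type II markers 3 fell and 0 rose (median -1.27), with sums of 12.23, 15.65 and 12.63 in fibrotic bronchi 3, 7 and 9, 15.89 to 16.33 in non-fibrotic and 14.99 to 15.74 in control bronchi. Fibrotic array 7, the highest for Ccn1 and Ccn2 and the lowest for Ccn3, thus lay with the controls in this sum. Of 12 T and NK cell markers 0 were called although all 12 had positive differences (median 1.72), with sums of 12.49 to 12.89 in fibrotic, 10.32 to 11.89 in non-fibrotic and 8.92 to 12.66 in control bronchi. Of 9 basal cell markers 0 were called (median 1.30), with sums of 12.65 to 14.90 in fibrotic, highest in array 9, 11.79 to 12.22 in non-fibrotic and 11.48 to 13.57 in control bronchi.

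These counts too moved with the set of controls. Against controls 1 and 2 alone, 0 fibroblast markers and 1 macrophage marker rose, 7 ciliated, 4 club and 0 alveolar type II markers fell. Against controls 3 to 6, 9 fibroblast, 4 macrophage, 2 T and NK cell and 1 basal cell markers rose, and 7 ciliated, 5 club and 3 alveolar type II markers fell. The part of these cell types in the results for the CCN genes was not tested.

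Smooth muscle and cartilage, which can hold CCN transcripts in the airway wall, showed no called marker. Of 12 smooth muscle markers 0 rose and 0 fell (median -0.09), and the sum was 14.07 to 15.15 in fibrotic, 14.89 to 15.05 in non-fibrotic and 13.67 to 15.56 in control bronchi, lowest in control 2. Of 8 chondrocyte markers 0 were called (median 0.82), with 5 of 8 under the background in all fibrotic, 6 in all non-fibrotic and 7 in all control arrays. Those under it in every array included Col2a1, the collagen of cartilage. The sum of the 8 markers was 8.29, 8.90 and 11.40 in fibrotic bronchi 3, 7 and 9, 8.55 to 9.35 in non-fibrotic and 7.46 to 8.38 in control bronchi. Fibrotic array 9, the highest in this sum, was also the highest array for Ccn4 and Ccn5. The same array was highest in the sums of fibroblast, basal, B and plasma cell and endothelial markers and those of cardiac muscle of pulmonary veins. The part of any of these in the values of Ccn4 and Ccn5 was not tested. Of 11 endothelial markers 1 rose and 1 fell (median 0.61), with sums of 13.02 to 13.15 in fibrotic, 12.45 to 13.00 in non-fibrotic and 12.33 to 13.05 in control bronchi.

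**Figure D5:**
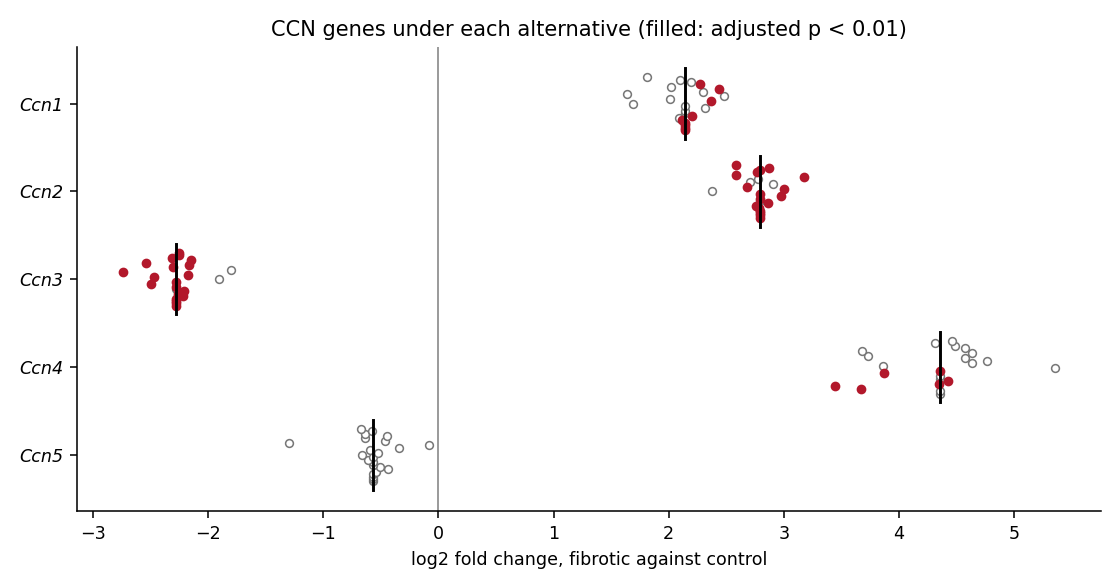
Log2 fold change of each CCN gene in fibrotic against control bronchi (horizontal) under each alternative processing (points) and as reported (bar); filled points had an adjusted p under 0.01. No alternative turned a direction, and Ccn3 and Ccn2 were called most often, in 20 and 18 of 23 alternatives.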

How the data were processed

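The intensity values were deposited by the authors as one MAS5 signal per probe set and array, made with the Affymetrix GeneChip Command Console software as linear values. The MAS5 version is not given in the sources used here, and the error weights of Rosetta Resolver, which the methods apply next, are not in these values. The series text names a Rat Gene ST array, whereas the probe sets and their annotation are of a rat 3′ expression array. Of 31099 probe sets 57 are controls. The annotation gives 1 symbol for 20826 probe sets, several for 436, which were not assigned, and none for 9780.

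Signals were taken to log2 without a filter, pseudocount or further scaling. One model of the 3 groups over all 12 arrays was fitted with limma 3.58.1 (lmFit and trended eBayes, R 4.3.3), two-sided, with Benjamini-Hochberg adjustment over 31042 probe sets and a threshold of 0.01. Every adjusted p of a log2 fold change in the text is from limma. The labels do not tie arrays to rats, so p-values measure the spread between these arrays, whose number limits the precision. On simulated data with 31042 probe sets, 50 each were shifted by a log2 of 1, 2, 3 and 4 between fibrotic and control bronchi. Of those shifted by 2, 18% were recovered, and of those shifted by 3, 50%, with 1 false call in all. Far fewer probe sets were shifted there than the 2914 called in the data. The adjustment is stricter where fewer probe sets differ, so these shares do not give the recovery in the data. Exact permutation tests used scipy 1.17.1, the random block statmod 1.5.0 and the figures matplotlib 3.10.9.

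Named genes were the members, Ccn6, genes of each list with the smallest p and the 3 genes most like each member. Others that were called in a list (Axl, Crim1, Itga6, Itgav, Itgb3, Gja1, Bmp4, Timp1, Col1a2, Amotl2, Arhgef17, Cdkn1a, Igfbp3, Asap1, Ltbp2 and Ier5) and some uncalled ones (Tgfb1, Vegfa, Ankrd1, Fos, Axin2) were named after their values were seen. The members and all lists were chosen with earlier results of these data known, so the counts of lists are descriptions. The threshold, a filter on dim probe sets, a floor, a pseudocount, the normalization, the variance model, the controls and a random block for sets of arrays were varied, and each array was left out in turn. Promoter sequences came from a table of RefSeq promoters on GRCr8, in which 2 of the 5 members were matched.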

Additional observations from a re-analysis of the deposited data

Results flagged for a closer look

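Of 46 genes named for the CCN family, 9 had an array that stood far from the other 5 controls by Dixon's test at 95%, where chance marks about 1 in 20 groups. Of these 6 were low in control 2 and 3 were high in control 1. Ccn4 had a log2 signal of 1.12 in control 2, under the background as in all controls. Control 2 also gave the lowest log2 signals of Lrp1 (8.71), Bgn (10.46), Lgr5 (8.09), Zfp422 (10.85) and Ica1 (9.15). Zfp422 and Ica1 were chosen because they vary like Ccn3, which had its own lowest control there. Control 1 gave the highest log2 signals of Edn1 (6.69), Podxl (10.43) and Mettl13 (9.15). Podxl was chosen because it varies like Ccn2, whose highest control was also control 1.

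Among the members and the genes of the 7 lists around the CCN proteins, 15 genes differed between fibrotic and non-fibrotic bronchi in the test of that difference (limma, adjusted p under 0.01), which no member did. The log2 difference of fibrotic and non-fibrotic bronchi was 3.49 for Fn1, 2.30 for Igf1, 1.94 for Tgfbi, 3.54 for Postn, 4.38 for Timp1, 1.56 for Ltbp2, 2.55 for Asap1, 2.08 for Itga6, 3.93 for Itgb3, 3.79 for Egr2 and 1.73 for Ier5, all higher in fibrotic bronchi. It was -2.81 for Fgfr2, -2.30 for Bmp4, -2.52 for Igfbp3 and -3.08 for Wwc1, lower in fibrotic bronchi. Wwc1 passed in 18 of 18 alternatives and the others in 10 to 16, and all but Wwc1, Igfbp3 and Ier5 lost the call without at least 1 of the fibrotic or non-fibrotic arrays.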

How the results depend on the processing

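No paired analysis was possible because fibrotic and control arrays share only replicate number 3, non-fibrotic and control arrays only number 4, and fibrotic and non-fibrotic arrays none, and the labels tie no specimen to a rat. Each member has 1 probe set, so the second-highest probe set and the mean of probe sets gave no alternative for it.

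In fibrotic against control bronchi, 3 members were called. This became 0 with eBayes without trend, 0 with controls 1 and 2 only, and 0 to 3 without 1 array. Called probe sets, 2914 in all, became 5541 at an adjusted p under 0.05, 4863 with array quality weights, 408 with controls 1 and 2 only and 1718 to 3358 without 1 array. In non-fibrotic against control bronchi the 162 called probe sets became 1811 at 0.05, 892 at a fold over 2 with an unadjusted p under 0.001, 348 with the floor, 333 with the pseudocount, 282 with quantile normalization, 76 without trend, 2 with controls 1 and 2 only, 1016 with controls 3 to 6 only, 58 with the random block and 41 to 371 without 1 array. In fibrotic against non-fibrotic bronchi the 1185 called probe sets became 2970 at 0.05, 504 without trend, 610 with array quality weights, 292 with only the 2 groups and 598 to 1921 without 1 array. Here 0 members were called, and 1 at an adjusted p under 0.05 (Ccn2) and 1 with the floor (Ccn4). No setting called a member in non-fibrotic against control bronchi.

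Among the members, a direction turned only in non-fibrotic against control bronchi, where none was called. The log2 fold change of Ccn1, 0.26, was -0.19 with controls 1 and 2 only and -0.062 to 0.56 without 1 array, negative without control replicate 6. That of Ccn4, 0.70, was -0.27 to 2.22 without 1 array, negative without non-fibrotic replicate 4. Of 43 other genes called in fibrotic bronchi, 39 lost the call with controls 1 and 2 only, a fit with fewer arrays, 14, 17 and 15 without fibrotic array 3, 7 and 9, and 3 to 8 without a control. Signals near the background limit Ccn4 and Ccn6.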
